A study of Homo sapiens with 6 samples.

Results

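The kinesins are the microtubule motor proteins encoded by genes whose symbols begin with KIF and a digit. All lines of the expression table with such a symbol were taken, leaving out KIF1BP, which encodes a kinesin-binding protein and not a motor. This gave 41 of the 26364 genes in the table. By their known roles 13 are mitotic motors, 13 are motors of cargo transport, 13 have other or less defined roles, and 2 are antisense RNAs, KIF9-AS1 and KIF25-AS1. A member was tested where its mean over the 6 libraries was at least 10 normalized counts, which held for 33 members: 12 mitotic, 11 cargo-transport, 9 other and 1 antisense. That mean includes both groups, so the choice of tested members rests on measured values. KIF26B lay just inside the limit with a mean of 12.5 normalized counts, and KIF26A just outside it with 4.28.

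Kinesins are ATPases that bind microtubules, and most walk along them toward the plus end. Transport kinesins carry vesicles, endosomes, mitochondria and protein complexes through interphase cells, which in an airway epithelial cell includes traffic toward the cell surface and into cilia. Mitotic kinesins build the spindle, move chromosomes and assemble the midzone on which the cell divides, and in cycling cells the transcripts of many of them accumulate before mitosis.

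The cells were Calu3, a human lung adenocarcinoma line, transfected with siRNA against BRD8 or with a negative control siRNA, each at a labelled amount of 20 nmol and with the same lipid reagent. BRD8 encodes a bromodomain protein of TIP60/NuA4, a complex that acetylates histones. Each group had 3 libraries of total RNA, sequenced from a single end and made with a kit that keeps no record of strand. A single siRNA product was used against BRD8, no time after transfection is given, and the extraction protocol that all samples share names HBE cells although every sample is labelled Calu3. Nothing in the labels ties the libraries to separate cultures, so the spread behind every p-value may be no more than technical spread between libraries.

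The BRD8 transcript had 1312, 1084 and 1156 normalized counts after BRD8 siRNA and 2751, 2928 and 3067 after control siRNA, a log2 fold change of -1.30 with no overlap between groups. The libraries held 34427104 to 37896467 reads after BRD8 siRNA and 33640814 to 37081766 after control siRNA. Control library 2 stood apart: on the second principal component, which held 20.6% of the variance, it scored -29.96 and the other 5 libraries scored between -7.08 and 13.8. All 8 epithelial markers were present, with KRT8 the most abundant, and their summed level was 474468 to 523522 normalized counts after BRD8 siRNA against 350905 to 427509 after control siRNA, with 5 of the 8 higher. After BRD8 siRNA the summed leukocyte markers were 47.4 to 57.2, the endothelial markers 11.4 to 13.5 and the fibroblast markers 159 to 173 normalized counts. After control siRNA the same sums were 35.1 to 51.8, 4.32 to 11.2 and 183 to 202, and the fibroblast marker COL1A2 was at 0 in every library. Airway basal markers summed to 841 to 994 after BRD8 siRNA and 372 to 547 after control siRNA, with 2 of 4 higher, and ciliated markers summed to 595 to 766 after BRD8 siRNA and 608 to 1015 after control siRNA, with neither of the 2 tested genes past the threshold by limma. Of all 15354 genes tested, limma called 10.1% higher and 8.93% lower. The part of these marker differences in the kinesin results was not tested.

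The mitotic kinesins were lower after BRD8 siRNA, while most cargo-transport kinesins did not pass the test. All 12 tested mitotic kinesins were lower after BRD8 siRNA than after control siRNA, with log2 fold changes between -0.97 and -0.51 and a median of -0.72. This count depends on the assignment of roles, since KIF2A, which also works at spindle poles, was placed among the other kinesins and did not pass the test; with it the count would be 12 of 13. Of the 11 tested cargo-transport kinesins 1 was lower, KIF3C, a share near the 8.93% of all genes tested that were lower. The class ran between -0.38 and 0.02 with a median of -0.16. Of the 9 other kinesins 3 were lower, KIF24, KIF21B and KIF7, with a class median of -0.23. By limma 0 kinesins were higher. At an unadjusted p under 0.05, 18 members were lower, 3 of them transport kinesins, and 1, KIF12, was higher. The share of all genes at that threshold was not counted. In all, 16 of 33 tested members were lower at an adjusted p under 0.05 (limma, Benjamini-Hochberg), where 8.93% of the 15354 genes tested were lower, 10.1% were higher and the median over all genes was -0.01. In the same 16 members every BRD8 siRNA library lay below every control library, as it did in 17.9% of all genes tested, and in 18.9% it lay above. No member changed by 2-fold or more. On the recovered reads edgeR and DESeq2 each called 16 members lower and 0 higher, with 8.66% and 10.5% of all genes lower and 10.7% and 11.2% higher. The authors' deposited table has the same counts of members, with 10.1% of its genes lower and 10.4% higher. In bulk RNA, fewer cells near mitosis and less of these transcripts per cell cannot be told apart.

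**Figure D1:**
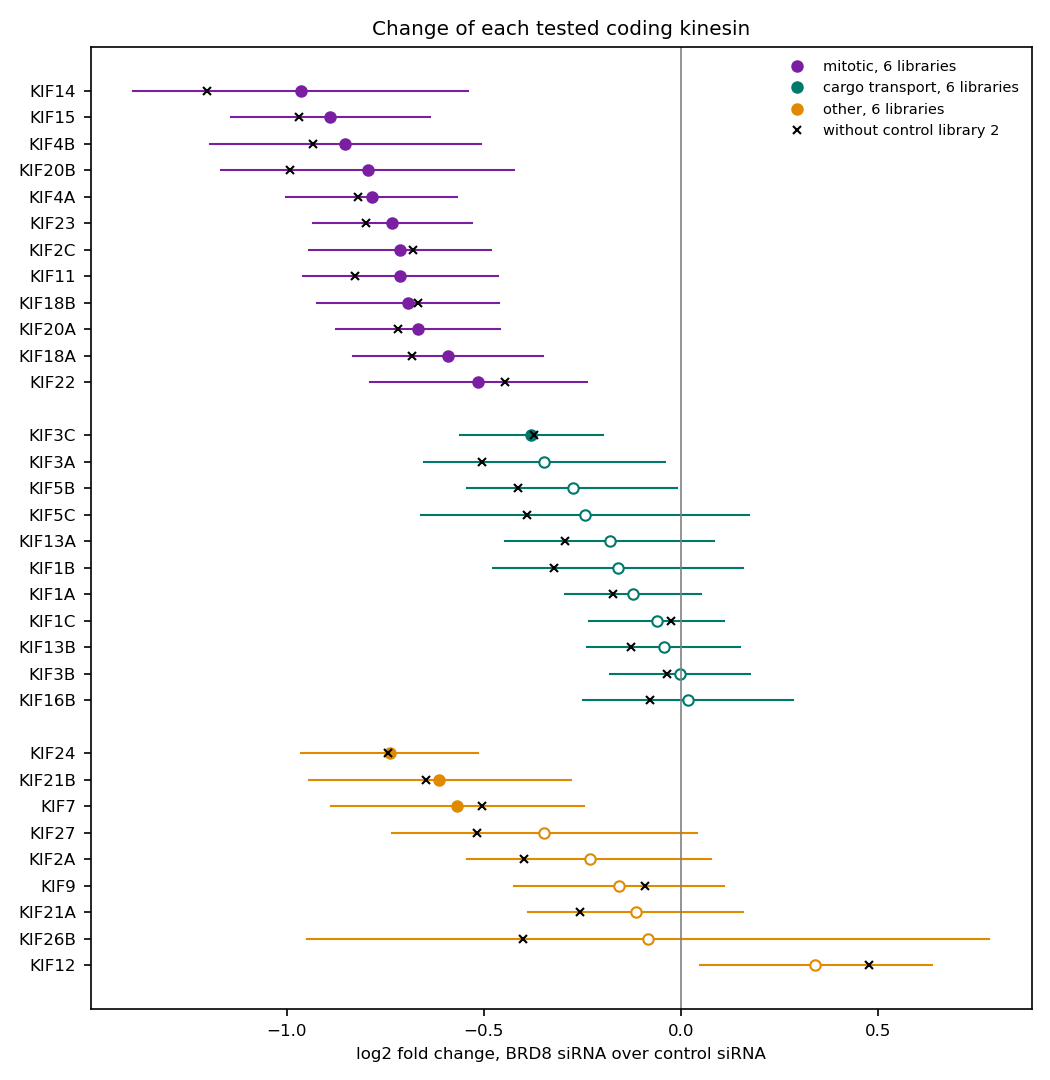
Log2 fold change of each tested kinesin, BRD8 siRNA over control siRNA on the log2(normalized count + 1) scale, with 95% intervals, grouped by role; filled points passed an adjusted p of 0.05 (limma) and open points did not. The 12 mitotic kinesins all lie between -0.97 and -0.51, and the transport kinesins between -0.38 and 0.02.

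KIF11 and KIF15, the motors that form and hold the bipolar spindle, were both lower. KIF11, the kinesin-5 that pushes spindle poles apart, had 1755, 1632 and 1878 normalized counts after BRD8 siRNA and 3064, 2446 and 3156 after control siRNA. The groups did not overlap, and the lowest control value came from library 2. KIF11 fell with a log2 fold change of -0.71 (SE 0.109, adjusted p = 0.00315, limma), and without control library 2 the value was -0.83. KIF15, a kinesin-12 that helps to keep the spindle bipolar beside KIF11, had 519, 503 and 606 normalized counts after BRD8 siRNA and 1003, 897 and 1120 after control siRNA. Its groups lay well apart, and it fell by 0.89 on the log2 scale (SE 0.111, adjusted p = 0.00129, limma).

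Motors of chromosomes and of microtubule ends were lower as well. KIF4A, a chromokinesin that works with PRC1 at the midzone, had 1009, 908 and 932 normalized counts after BRD8 siRNA against 1516, 1561 and 1848 after control siRNA. The control libraries were the higher ones throughout, and KIF4A fell by 0.79 on the log2 scale (adjusted p = 0.00119, limma). KIF4B is a close copy of it at another locus and gave 165, 124 and 140 normalized counts after BRD8 siRNA and 244, 230 and 305 after control siRNA, a log2 fold change of -0.85 (adjusted p = 0.00604, limma). The transcripts share 606 stretches of 50 bases, 14.1% of those of KIF4A, so the assignment of reads between the pair is uncertain. The other chromokinesin, KIF22, which pushes chromosome arms away from the poles, changed least among the mitotic motors: 1203, 1198 and 958 normalized counts after BRD8 siRNA against 1381, 1748 and 1668 after control siRNA, at -0.51 (adjusted p = 0.0198, limma). Of all genes tested, 5.67% fell at least as far as KIF22. Its call was lost without BRD8 siRNA library 3, with an adjusted p of 0.0726, and without control library 3, with 0.0857. In the comprehensive GENCODE v29 set an antisense RNA on the opposite strand covers 561 of the 4312 exon bases of KIF22. In its basic set the overlap is 177 bases. Reads of the pair cannot be told apart in the shared bases.

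Both kinesin-8 motors, which restrain microtubule plus ends, passed the test. KIF18A, which damps the oscillation of chromosomes on the metaphase plate, had 685, 591 and 684 normalized counts after BRD8 siRNA and 1030, 866 and 1064 after control siRNA, with a log2 fold change of -0.59. KIF18B, which acts on astral microtubules, had 602, 505 and 512 normalized counts after BRD8 siRNA and 795, 898 and 920 after control siRNA, with -0.69. The groups of both genes were separate, at adjusted p-values of 0.00641 and 0.00262 (limma). KIF2C, a kinesin-13 that takes microtubules apart at centromeres, had 1438, 1332 and 1437 normalized counts after BRD8 siRNA and 1981, 2403 and 2550 after control siRNA. Here control library 1 and not library 2 was the lowest control, and KIF2C fell by 0.71 on the log2 scale (adjusted p = 0.00228, limma).

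The motors of the midzone and of cytokinesis held both the most abundant and the most reduced mitotic kinesins. KIF23, the motor of the centralspindlin complex, had 1748, 1662 and 1732 normalized counts after BRD8 siRNA against 2779, 2598 and 3195 after control siRNA. The BRD8 siRNA libraries lay within a narrow range, and KIF23 had the smallest adjusted p of the family at 0.00117 (limma) with a log2 fold change of -0.73. KIF14, which binds citron kinase at the midbody, had 630, 567 and 715 normalized counts after BRD8 siRNA against 1452, 892 and 1473 after control siRNA. It fell furthest of the kinesins, with a log2 fold change of -0.97 (SE 0.187, adjusted p = 0.00866, limma), and control library 2 lay far below the other control libraries. Without that library the log2 fold change of KIF14 was -1.20. KIF20B, which acts late in cytokinesis, showed the same spread: 1065, 1052 and 1314 normalized counts after BRD8 siRNA against 2263, 1504 and 2258 after control siRNA. It fell by 0.79 (adjusted p = 0.0111, limma), by 0.99 without control library 2, and its call was lost without control library 3, with an adjusted p of 0.0524.

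KIF20A, which brings the chromosomal passenger complex to the midzone, needs a note on counting because it is the neighbour of BRD8 on chromosome 5. It had 1901, 1693 and 1828 normalized counts after BRD8 siRNA and 2732, 2676 and 3224 after control siRNA. The groups were separate, and KIF20A fell by 0.67 on the log2 scale (SE 0.0922, adjusted p = 0.00198, limma), one of the smaller changes of the mitotic class. In RefSeq the listed first bases of KIF20A and BRD8 lie 482 bases apart, and the genes run away from each other on opposite strands. In the comprehensive GENCODE v29 set 132 of the 3958 exon bases of KIF20A, or 3.34%, also belong to BRD8 exons, and in its basic transcript set 0 do. Another 68 bases belong to CDC23. Because the libraries keep no strand, BRD8 reads in those 132 bases could have been assigned to either gene or to none, and their share was not tested. On average KIF20A was the most abundant mitotic kinesin per length, at 565 normalized counts per kilobase of transcript after BRD8 siRNA and 899 after control siRNA.

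**Figure D2:**
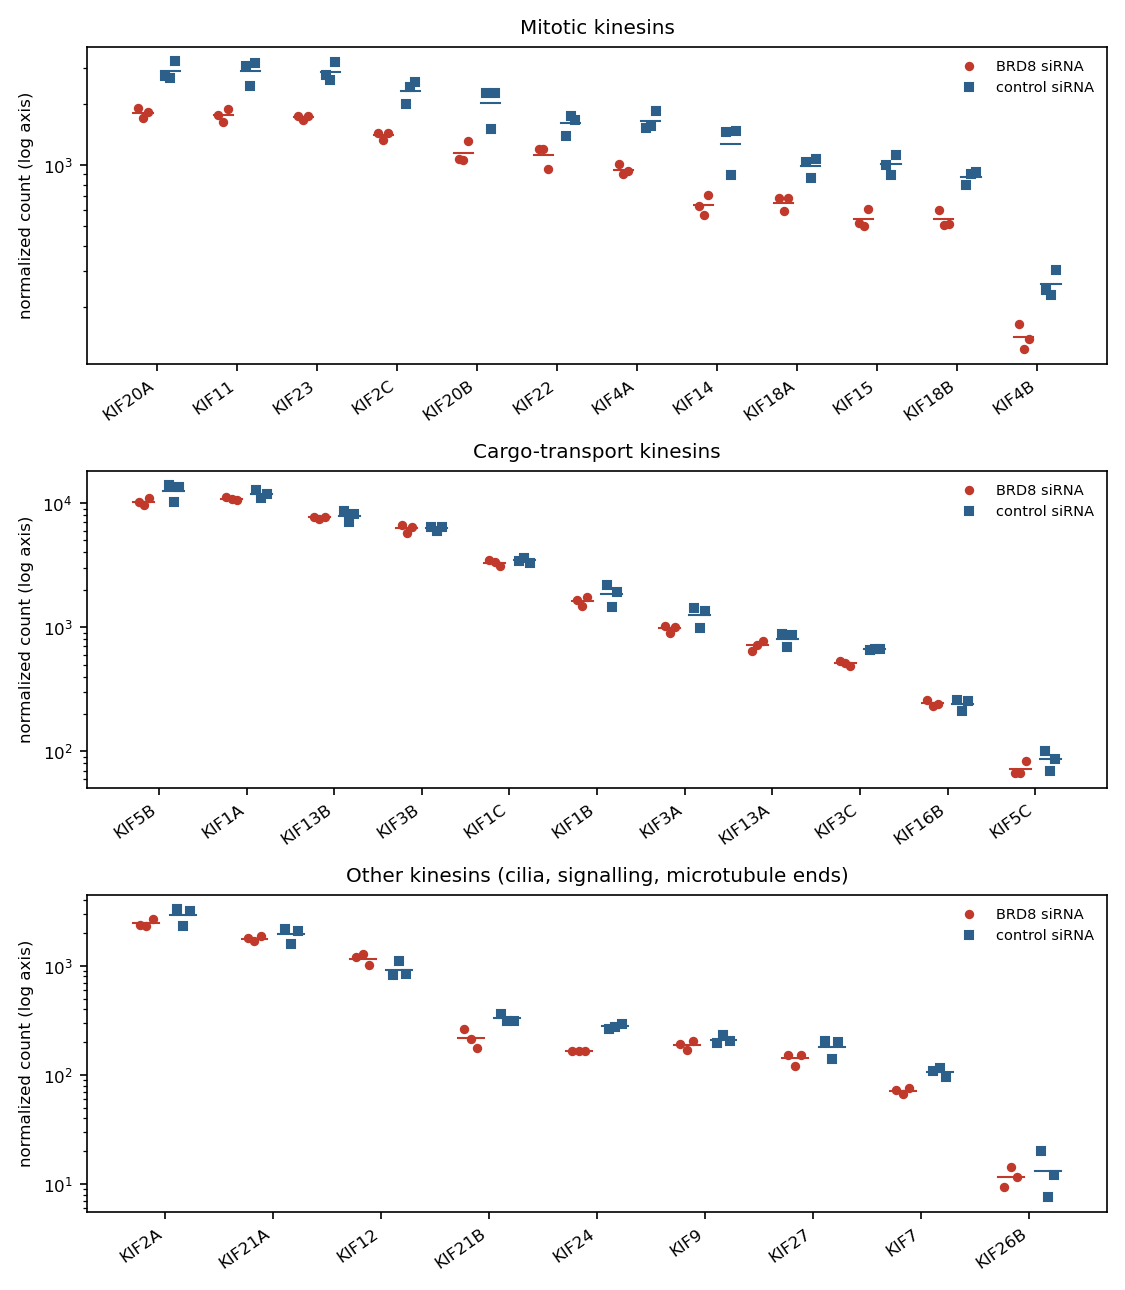
Normalized counts of the tested kinesins in each of the 6 libraries on a log axis, BRD8 siRNA libraries and control siRNA libraries as separate points, grouped by role. In all 12 mitotic kinesins the BRD8 siRNA points lie below the control points, whereas the groups overlap in 10 of 11 transport kinesins.

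Promoter windows are shown for the mitotic kinesins because all 12 tested members of the class were lower, and for transport kinesins as a contrast. A pair of short sequences was searched on both strands, both known from promoters of genes that are expressed in G2 and M phase: the CHR-type letters and the CCAAT letters. The CHR-type letters are TTTGAA, which reads TTCAAA on the other strand, or the palindrome TTCGAA. The letters CCAAT read ATTGG on the other strand. Each line gives 120 bases, 100 before and 20 after the first transcribed base listed by RefSeq on GRCh38.p14, read along the gene, with matches in capitals. The data were mapped to hg19, so these coordinates are not those of the expression files. The first set holds mitotic kinesins with both matches within the window, and KIF15, with the CHR-type letters alone.
KIF11: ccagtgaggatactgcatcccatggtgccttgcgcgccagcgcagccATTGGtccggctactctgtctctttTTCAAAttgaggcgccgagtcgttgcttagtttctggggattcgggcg
KIF4A: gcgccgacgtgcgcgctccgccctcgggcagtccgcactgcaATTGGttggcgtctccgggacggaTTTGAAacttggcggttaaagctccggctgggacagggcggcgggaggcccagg
KIF4B: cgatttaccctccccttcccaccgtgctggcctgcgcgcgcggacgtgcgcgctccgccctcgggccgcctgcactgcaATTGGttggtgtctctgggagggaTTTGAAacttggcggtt
KIF14: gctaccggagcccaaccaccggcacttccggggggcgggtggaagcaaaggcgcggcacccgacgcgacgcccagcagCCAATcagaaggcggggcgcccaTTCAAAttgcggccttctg
KIF18A: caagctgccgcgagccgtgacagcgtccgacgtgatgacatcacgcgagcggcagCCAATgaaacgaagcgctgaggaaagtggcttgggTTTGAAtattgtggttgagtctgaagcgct
KIF18B: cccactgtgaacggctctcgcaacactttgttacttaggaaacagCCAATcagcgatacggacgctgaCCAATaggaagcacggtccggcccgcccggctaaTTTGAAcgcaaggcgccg
KIF22: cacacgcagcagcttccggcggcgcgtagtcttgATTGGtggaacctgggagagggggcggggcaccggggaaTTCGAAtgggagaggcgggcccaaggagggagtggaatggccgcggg
KIF23: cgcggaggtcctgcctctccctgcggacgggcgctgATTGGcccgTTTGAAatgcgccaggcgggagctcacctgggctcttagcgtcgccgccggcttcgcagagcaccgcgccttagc
KIF15: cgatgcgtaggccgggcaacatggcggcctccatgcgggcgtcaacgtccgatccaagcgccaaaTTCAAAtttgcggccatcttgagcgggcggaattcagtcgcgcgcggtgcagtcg

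These windows are KIF11 at chr10:92593030-92593149 (plus strand), KIF4A at chrX:70290004-70290123 (plus strand), KIF4B at chr5:155013655-155013774 (plus strand), KIF14 at chr1:200620732-200620851 (minus strand), KIF18A at chr11:28108137-28108256 (minus strand), KIF18B at chr17:44947754-44947873 (minus strand), KIF22 at chr16:29790651-29790770 (plus strand), KIF23 at chr15:69414249-69414368 (plus strand) and KIF15 at chr3:44761694-44761813 (plus strand). KIF22 has more than 1 listed start, and the first is shown. In KIF11, KIF4A, KIF4B and KIF14 the first base of the CCAAT letters lies 23 to 25 bases before the first base of the CHR-type letters. KIF4A and KIF4B hold a near-identical stretch around both, though at different distances from their listed starts. In KIF18A, KIF18B and KIF22 the spacing is 34 to 39 bases, in KIF23 it is 9, and in KIF20B it is 122 and 128 for its pair of CHR-type matches.

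The second set holds KIF20A, the mitotic kinesin beside BRD8, with CCAAT letters alone; KIF24, the only tested kinesin of the other class with both matches; and the transport kinesins KIF3C, KIF3B and KIF1C.
KIF20A: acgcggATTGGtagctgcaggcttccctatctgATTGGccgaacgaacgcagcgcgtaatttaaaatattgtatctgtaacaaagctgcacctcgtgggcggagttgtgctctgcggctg
KIF24: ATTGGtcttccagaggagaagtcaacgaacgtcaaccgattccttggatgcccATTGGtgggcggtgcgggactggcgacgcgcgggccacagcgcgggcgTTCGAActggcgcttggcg
KIF3C: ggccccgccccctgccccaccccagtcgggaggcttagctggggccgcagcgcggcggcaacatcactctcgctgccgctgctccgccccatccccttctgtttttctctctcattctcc
KIF3B: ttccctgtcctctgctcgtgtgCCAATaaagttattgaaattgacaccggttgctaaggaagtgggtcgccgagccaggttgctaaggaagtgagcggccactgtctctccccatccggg
KIF1C: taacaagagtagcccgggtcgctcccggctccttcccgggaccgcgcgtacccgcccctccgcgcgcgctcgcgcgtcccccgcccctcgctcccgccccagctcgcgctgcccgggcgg

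These lie at chr5:138179012-138179131 (plus strand) for KIF20A, chr9:34329249-34329368 (minus strand) for KIF24, chr2:25982478-25982597 (minus strand) for KIF3C, chr20:32277551-32277670 (plus strand) for KIF3B and chr17:4997850-4997969 (plus strand) for KIF1C. Over the full 300 bases that RefSeq windows cover, the CHR-type letters stood in 10 of 12 tested mitotic kinesins (83.3%), in 1 of 10 transport kinesins with a listed promoter and in 1 of 6 other kinesins (16.7%). The transport kinesin is KIF5B, with the letters at position -140 from the start, and the other kinesin is KIF24. They stood in 15.5% of all 10999 tested genes with a listed promoter and in 22.4% of the genes that were lower. CCAAT letters stood in 10 of 12 mitotic kinesins (83.3%), 4 of 10 transport kinesins (40.0%) and 42.8% of all tested genes. Both stood together in 9 of 12 mitotic kinesins and in 6.6% of all tested genes. Among the mitotic kinesins KIF2C held neither. KIF3C had no match in the window shown. A match describes letters alone and does not show a bound site. Whether any factor binds there was not measured, and a part of the letters in the change was not tested.

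**Figure D3:**
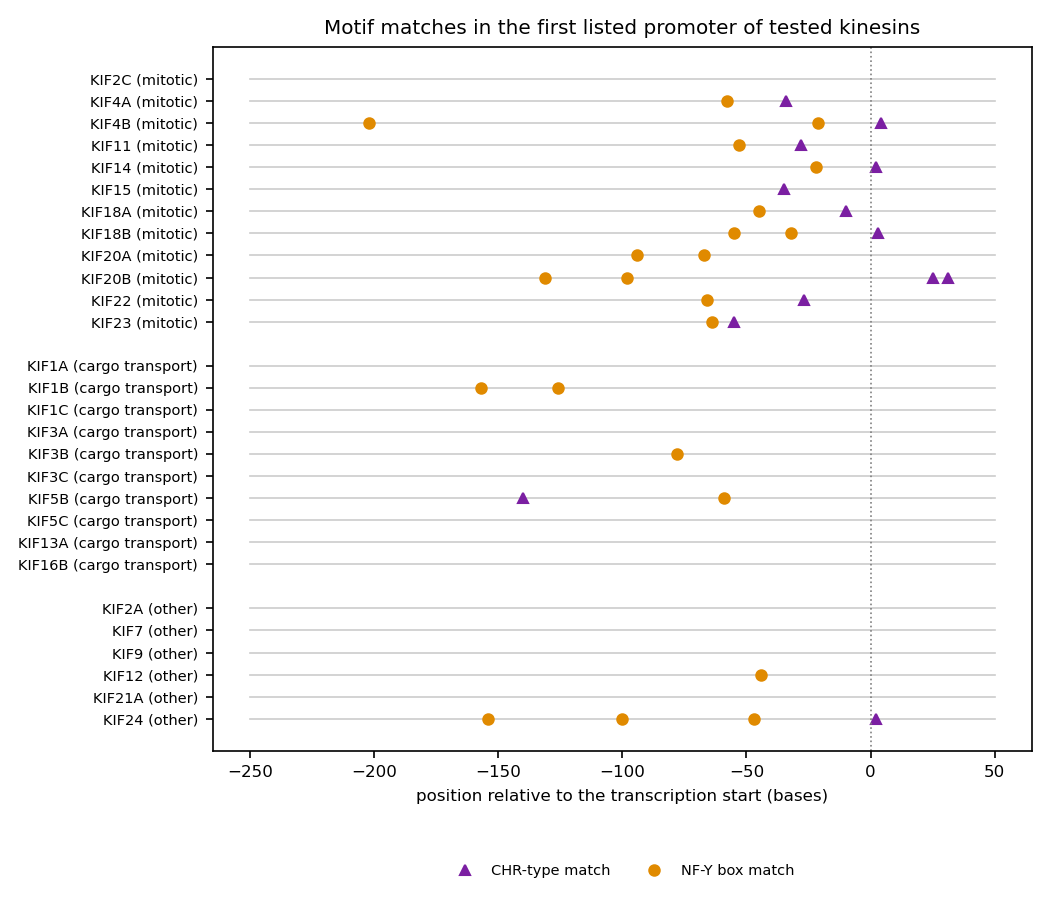
Positions of the CHR-type letters and the CCAAT letters in the RefSeq promoter of each tested kinesin, in bases from the first transcribed base, grouped by role; where several starts are listed the first is drawn, and the CCAAT letters are marked as NF-Y box matches. CHR-type letters appear in 10 of 12 mitotic kinesins and in 1 of 10 transport kinesins.

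Of the 11 tested transport kinesins 10 did not pass the test by limma, and 10 had a negative log2 fold change. At an unadjusted p under 0.05, 3 were lower and 0 higher, a threshold at which the share of all genes was not counted. KIF5B, KIF1A, KIF3B and KIF13B were the most abundant kinesins per length, but the median tested transport kinesin had 154 normalized counts per kilobase after BRD8 siRNA and 198 after control siRNA, below the mitotic medians of 201 after BRD8 siRNA and 345 after control siRNA. KIF5B, the ubiquitous conventional kinesin heavy chain, had the highest level per length of the family, at 1746 normalized counts per kilobase after BRD8 siRNA and 2129 after control siRNA. Its libraries held 10128, 9674 and 10978 normalized counts after BRD8 siRNA against 13858, 10238 and 13435 after control siRNA. Control library 2 lay among the BRD8 siRNA libraries, so the groups overlapped, and the log2 fold change of -0.28 had an adjusted p of 0.140 (limma). Without control library 2 it was -0.41 with an adjusted p of 0.00127. KIF5C, a conventional kinesin best known in neurons, was far lower in level, with means of 72.0 normalized counts after BRD8 siRNA and 86.0 after control siRNA and a log2 fold change of -0.24 (adjusted p = 0.400, limma).

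Of the kinesin-2 subunits 1 passed the test, KIF3C. KIF3A and KIF3B form the heterodimer that drives intraflagellar transport in cilia, and KIF3C pairs with KIF3A. KIF3C had 531, 515 and 490 normalized counts after BRD8 siRNA against 656, 672 and 672 after control siRNA, the tightest control group among the transport kinesins. It fell by 0.38 on the log2 scale (SE 0.0796, adjusted p = 0.0120, limma), and the call was lost without BRD8 siRNA library 3 (0.0621) or control library 3 (0.0633). KIF3B had 6606, 5733 and 6389 normalized counts after BRD8 siRNA and 6418, 5954 and 6363 after control siRNA. Its groups covered nearly the same range, and its log2 fold change was 0.00 with a 95% interval of -0.18 to 0.17, which leaves out the value of any mitotic kinesin. KIF3A had 1023, 898 and 1007 normalized counts after BRD8 siRNA against 1422, 993 and 1349 after control siRNA, with control library 2 inside the BRD8 siRNA range. Its log2 fold change was -0.35 (adjusted p = 0.108, limma), and -0.51 without control library 2 (adjusted p = 0.00108).

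Among the kinesin-3 transporters none passed the test. KIF1A, known as the motor of synaptic vesicle precursors in neurons, was the second most abundant kinesin per length, with 11252, 10675 and 10523 normalized counts after BRD8 siRNA and 12665, 10958 and 11714 after control siRNA. The groups met between 10958 and 11252, and the log2 fold change was -0.12 (adjusted p = 0.309, limma). KIF1C, which moves vesicles, had 3490, 3329 and 3101 normalized counts after BRD8 siRNA and 3412, 3623 and 3315 after control siRNA, with a log2 fold change of -0.06 and a 95% interval of -0.23 to 0.11. KIF1B, which carries mitochondria and vesicles, was at -0.16 with all libraries and at -0.32 without control library 2 (adjusted p = 0.0183, limma). KIF13A and KIF13B, which carry membrane proteins, were at -0.18 and -0.04, and KIF16B, a motor of early endosomes, was at 0.02 (adjusted p = 0.932, limma). Without control library 2, KIF13A was at -0.29 (adjusted p = 0.0325, limma), while KIF13B and KIF16B did not pass.

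**Figure D4:**
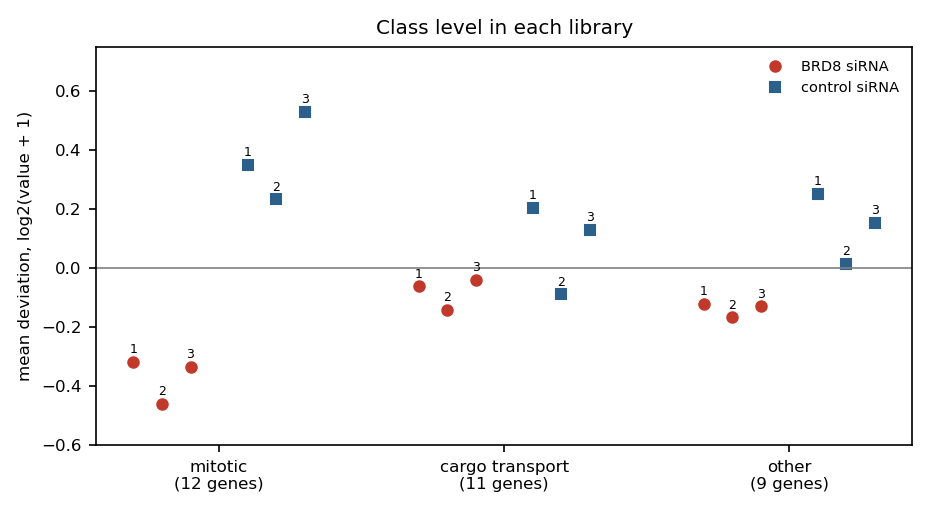
Mean deviation of the tested kinesins of each class from their mean over all 6 libraries, on the log2(normalized count + 1) scale, for each library, with BRD8 siRNA libraries left of control siRNA libraries. The mitotic class lies between -0.46 and -0.32 in the BRD8 siRNA libraries and between 0.23 and 0.53 in the control libraries, while control library 2 of the transport class lies at -0.09, inside the BRD8 siRNA range.

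Library by library, the mean mitotic deviation was -0.32, -0.46 and -0.33 on the log2 scale after BRD8 siRNA and 0.35, 0.23 and 0.53 after control siRNA. The mean transport deviation was -0.06, -0.14 and -0.04 after BRD8 siRNA and 0.21, -0.09 and 0.13 after control siRNA. Control library 2 was the lowest control in both classes but crossed into the BRD8 siRNA range only for transport kinesins. Summed per kilobase of transcript, mitotic kinesins gave 3356, 3108 and 3279 normalized counts after BRD8 siRNA against 5093, 4958 and 5840 after control siRNA, with the groups apart. Transport kinesins gave 5924, 5553 and 5922 after BRD8 siRNA against 6948, 5739 and 6646 after control siRNA, with the groups overlapping. Without control library 2 the 12 mitotic kinesins were again all lower, 5 of 11 transport kinesins were lower, and among the other kinesins 6 were lower and 1 higher, where 18.1% of all genes were lower and 15.9% higher. The weakest mitotic value was then -0.45, for KIF22, and the strongest transport value -0.51, for KIF3A, so the ranges of the classes met. Longer transcripts were lower across all genes (Spearman rho of log2 fold change with transcript length -0.16, and -0.30 without control library 2), and transport transcripts were the longer ones, with a median of 6924 bases against 4282 for mitotic kinesins. After the trends with length and GC content were removed, 12 of 12 mitotic, 3 of 11 transport and 3 of 9 other kinesins were lower, where 19.3% of all genes were.

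Of the kinesins with other roles, KIF24 gave the clearest difference. This kinesin-13 acts at centrioles, where it restrains the growth of cilia in cycling cells. It had 166, 164 and 167 normalized counts after BRD8 siRNA and 264, 276 and 293 after control siRNA. Both groups were narrow, and KIF24 fell by 0.74 on the log2 scale (SE 0.0991, adjusted p = 0.00173, limma), within the range of the mitotic class. KIF21B, a kinesin-4 that limits microtubule growth, had 261, 214 and 178 normalized counts after BRD8 siRNA against 361, 314 and 315 after control siRNA and fell by 0.61 (adjusted p = 0.0209, limma). KIF7, a kinesin of the ciliary tip in Hedgehog signalling, had 72.8, 66.4 and 76.4 normalized counts after BRD8 siRNA against 108, 117 and 96.6 after control siRNA and fell by 0.57 (adjusted p = 0.0243, limma). The groups of both were separate, but KIF21B kept its call in 2 and KIF7 in 1 of the 6 fits that left out a library, with adjusted p-values of 0.0623 to 0.0705 and 0.0524 to 0.0919 in the others. In the comprehensive GENCODE v29 set, exons of TICRR on the opposite strand cover 589 exon bases of KIF7, or 11.8%. In its basic set they cover 47 bases.

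KIF12, a kinesin of epithelial organs, was the member with the largest positive value. It had 1195, 1268 and 1026 normalized counts after BRD8 siRNA and 824, 1101 and 842 after control siRNA. Control library 2 again overlapped the BRD8 siRNA range, and the log2 fold change of 0.34 had an adjusted p of 0.102 (limma). Without that library it was 0.48 with an adjusted p of 0.00327. KIF2A, a microtubule depolymerase of spindle poles and of neurons and a relative of KIF2C, was at -0.23 (adjusted p = 0.276, limma) and -0.40 without control library 2 (adjusted p = 0.00282). KIF27, KIF21A and KIF9 were at -0.35, -0.11 and -0.16, and the antisense RNA KIF9-AS1 at -0.35, none past the threshold. Without control library 2, KIF27 was at -0.52 (adjusted p = 0.0154, limma) and KIF21A at -0.26 (adjusted p = 0.0221, limma). KIF9 and KIF9-AS1 did not pass in that fit either. KIF9 and KIF9-AS1 share 870 exon bases on opposite strands in the comprehensive GENCODE v29 set, 569 in its basic set, and cannot be told apart there. By the comprehensive set 16 of the 33 tested members share exon bases with another gene, and for 14 that gene lies on the opposite strand. Some of these overlaps are 0 bases in the basic set, as for KIF4A, KIF3A and KIF2A.

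The 8 members below the limit were KIF26A, KIF17, KIF5A, KIF6, KIF25, KIF2B, KIF19 and KIF25-AS1. KIF2B, KIF19 and KIF25-AS1 had 0 reads in every library, which allows up to 2.84 to 3.24 normalized counts per library by counting error alone. KIF17, KIF5A, KIF6 and KIF25 had means between 0.477 and 2.13 normalized counts and did not separate the groups. KIF26A had 8.32, 4.74 and 10.6 normalized counts after BRD8 siRNA and 0.948, 0 and 1.02 after control siRNA, which is 24 reads in all after BRD8 siRNA against 2 after control siRNA. The groups do not overlap, but the control libraries are under the floor of 3 reads and KIF26A was not tested.

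Partner genes were counted from lists of the kinesins' known partners. Of the 5 kinesins named outside the KIF-digit symbols, 3 were lower and 1 higher, where 8.93% of all genes were lower and 10.1% higher, with a median log2 fold change of -0.52 beside -0.01 for all genes. CENPE, which links kinetochores to microtubules, had 790, 732 and 904 normalized counts after BRD8 siRNA and 1509, 977 and 1601 after control siRNA, and fell by 0.72 on the log2 scale (adjusted p = 0.0226, limma). KIFC1, a minus-end motor that bundles spindle poles, fell by 0.52 (adjusted p = 0.00912, limma). STARD9, a mitotic kinesin at centrosomes with an average of only 15.4 normalized counts after BRD8 siRNA and 29.8 after control siRNA, fell by 0.90 (adjusted p = 0.0293, limma). KIFC2, a minus-end motor known from neurons, was higher, at 1894, 2651 and 2135 normalized counts after BRD8 siRNA and 1616, 1808 and 1511 after control siRNA, a log2 fold change of 0.43 (adjusted p = 0.0461, limma). KIFC3 was at -0.23 (adjusted p = 0.103, limma). Without control library 3 none of these 5 genes passed the test by limma. With all libraries each had an unadjusted p under 0.05, a threshold at which the share of all genes was not counted. On the recovered reads edgeR called 4 of them and DESeq2 3.

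Of 18 partners and regulators of mitotic kinesins 17 were lower and 1 higher, where 8.93% of all genes were lower and 10.1% higher, with a median log2 fold change of -0.65. With a library left out, 13 to 17 were lower. CDCA8, a subunit of the passenger complex that KIF20A carries, had 847, 844 and 815 normalized counts after BRD8 siRNA and 1443, 1576 and 1767 after control siRNA, and fell by 0.93. PRC1, the midzone bundler that binds KIF4A, fell by 0.81, BIRC5 of the passenger complex by 0.78, and TPX2, a spindle assembly factor that binds KIF11, by 0.75. The one higher was MAPRE1, the plus-end tracking protein EB1, at 0.24, which is named after its value was seen; this call was lost in 5 of the 6 fits with a library left out, the exception being the one without control library 2, as well as with no filter on low values and in limma without a variance trend. Of 15 tested kinesin light chains and cargo adaptors 1 was lower and 0 higher by limma, with a median of -0.13, beside 8.93% of all genes lower. After the trends with length and GC content were removed 7 of the 15 were lower, where 19.3% of all genes were. At an unadjusted p under 0.05, 3 were lower and 0 higher, and DESeq2 called 2 lower. The share of all genes at the unadjusted threshold was not counted. KLC1, a light chain of conventional kinesin, had 1547, 1599 and 1502 normalized counts after BRD8 siRNA against 1994, 1841 and 1887 after control siRNA and fell by 0.30 (adjusted p = 0.0211, limma). That call held in 1 of 6 fits with a library left out, the one without control library 2.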

How the data were processed

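Single-end RNA-seq of Calu3 cells after BRD8 siRNA or control siRNA gave 3 libraries each, grouped by the sample titles. Per the submitters' processing notes, the tools were featureCounts 1.6.3, Subread, STAR 2.6 and DESeq2 1.22.1, and the build was hg19. Annotation, strand setting and filters were not given in the sources used here. Deposited values were taken to be a normalized signal, gene counts that the authors scaled by a size factor for each library. The headers of the value columns do not state this. The authors' deposited comparison lists means, log2 fold changes with errors, test scores, and raw and adjusted p-values, and serves only as an alternative.

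The value of 1 read in each library was found from the normalized counts to recover whole reads, and 100% of values came out whole within 0.01. All 15354 genes with a mean of at least 10 were fitted in R 4.3.3 on log2(normalized count + 1) with limma 3.58.1 and its variance trend; this scale understates changes of low genes. P-values were adjusted over all of them by Benjamini-Hochberg with a threshold of 0.05, and intervals are 95%. On the recovered reads edgeR 4.0.16 called 2969 genes and limma 2920. Other pseudocounts, filters, scalings, DESeq2 1.42.0, a replicate block, a length and GC correction and leaving out each library were tried. The fit was tested on simulated data, which held independent libraries without an outlying control library or a trend with length. How the fit handles those features was not tested.

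Kinesin roles, the members and all gene lists were chosen with earlier results of these data known. Beside members and BRD8, up to 4 genes per list with the smallest adjusted p are named, and all 5 kinesins outside the symbol rule. No pair of replicates was as alike as sampling noise allows (chi-square over its degrees of freedom 6.63 to 51.8), so each library counted once. Intervals and floors cover counting error or spread between these libraries only. Exon overlaps come from GENCODE v29 and promoters from RefSeq on GRCh38.p14, which listed 29 of the 33 tested members.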

Additional observations from a re-analysis of the deposited data

How the results depend on the processing

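The 12 mitotic kinesins were lower in most fits; 11 were called by limma without a variance trend, where KIF22 had an adjusted p of 0.0504, and 10 to 12 with a library left out. Leaving out a library gave 11 to 24 changed kinesins (16 with all libraries), 0 to 5 changed transport kinesins (1), 1 to 7 other kinesins (3), 15 to 40 genes of the partner lists (30) and 1360 to 5229 genes in all (2920). The highest counts came without control library 2, and the cause was not tested. Removing the length and GC trend, 5260 genes, 3 transport kinesins and 46 partner-list genes changed, and with the replicate block added to it 5460, 3 and 47. Whether the replicate numbers pair the samples is not stated and was not tested. Deviations of same-numbered libraries correlated at -0.09, 0.34 and 0.16, and those of differently numbered libraries at -0.36 to 0.33. The replicate block alone called 3 transport kinesins and 18 lower and 1 higher members, where 12.8% of all genes were lower, adding KIF3A, KIF5B and KIF12.

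KIF3B, at 0.00, took a positive sign with quantile normalization (0.0099), TMM (0.0094), edgeR (0.0115), DESeq2 (0.0024) and removal of the length and GC trend (0.0496, with and without the replicate block), and ran from -0.0445 to 0.0577 with a library left out. On the same removals KIF13B ran from -0.13 to 0.0214, KIF16B from -0.0782 to 0.0752 and KIF26B from -0.40 to 0.24. KIF4A and KIF4B summed, an alternative chosen after seeing the data, changed no call, and 16 members, 12 of them mitotic, were lower in the authors' deposited table. With no filter on low values 17 members changed, the added one being KIF26A, which was higher. Depth limits KIF26A and the 7 members below it.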

Other observations

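Most genes of the other components of microtubule traffic did not pass the test. Of 26 tested genes of cytoplasmic dynein and dynactin, the minus-end counterpart of the transport kinesins, 3 were lower and 0 higher by limma, where 8.93% of all genes were lower and 10.1% higher, with a median log2 fold change of -0.06. The share lower was near that of all genes. DCTN4, a dynactin subunit, had 1897, 1921 and 2136 normalized counts after BRD8 siRNA and 3166, 2808 and 3257 after control siRNA and fell by 0.63 on the log2 scale. NDE1, a dynein regulator that also acts in mitosis, fell by 0.53, and the dynein intermediate chain DYNC1I2 fell by 0.24. At an unadjusted p under 0.05, 6 were lower and 3 higher, but the share of all genes at that threshold was not counted. DESeq2 called 4 lower and 1 higher in this list, edgeR 3 and 1, and without control library 2 limma called 6 lower and 3 higher, where 18.1% of all genes were lower and 15.9% higher. After the trends with length and GC content were removed 7 were lower and 3 higher, where 19.3% of all genes were lower and 16.1% higher.

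Some tubulins, the track on which the kinesins walk, were higher. Of 11 tubulin genes 0 were lower and 4 higher by limma, where 8.93% of all genes were lower and 10.1% higher, with a median log2 fold change of 0.11. At an unadjusted p under 0.05, 0 were lower and 5 higher, as by DESeq2, while edgeR called 4 higher. DESeq2 called 11.2% of all genes higher and edgeR 10.7%, and the share at the unadjusted threshold was not counted. After the trends with length and GC content were removed 1 was lower and 5 higher, and with the replicate block added to that 2 were lower and 5 higher. With that correction alone 19.3% of all genes were lower and 16.1% higher. TUBB6 had 1933, 2345 and 2058 normalized counts after BRD8 siRNA and 1408, 1592 and 1482 after control siRNA, with separate groups and a log2 fold change of 0.50. TUBB3 had 2603, 3152 and 2738 normalized counts after BRD8 siRNA and 1853, 2465 and 1873 after control siRNA, with a log2 fold change of 0.46. TUBB2A rose by 0.46 and TUBA4A by 0.39 on the same scale. Tubulin genes are close in sequence, so the assignment of reads among them is uncertain. With 1 library left out, the count of higher tubulins was 1 for each library except control library 2, without which 6 were higher.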
